A study of Mus musculus with 6 samples.

Results

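The genes described here are 8 members of the DNA methylation machinery, chosen by symbol: the writers Dnmt1 and Dnmt3a, the erasers Tet1, Tet2 and Tet3, and the methyl-CpG-binding domain (MBD) genes Mbd1, Mbd2 and Mbd5. All 8 of 8 symbols were found among the 32285 genes of the count matrices. Their RNA was followed in single-nucleus RNA-Seq (snRNA-Seq) of the prelimbic (PL) area of the mouse medial prefrontal cortex, in 6 libraries, each made from pooled tissue of 3 C57BL/6 males. Run mice were raised by dams with a running wheel and Sed mice by dams in standard cages, and both were then either group housed (GH) or socially isolated (SI) from weaning. Cohort 1 gave 1 Run GH and 1 Sed GH library, from mice that had been through tube tests of social dominance and had been picked by their rank. The study words this as Run and Sed males from the top and bottom of their group. It is read here as Run from the top and Sed from the bottom. Cohort 2, without earlier testing, gave 1 GH and 1 SI library from Run mice and the same from Sed mice. The study describes adult mice, whereas the labels of the libraries give postnatal day 21.

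DNA methylation in mammals is carried mainly by cytosines that precede a guanine (CpG). Dnmt1 copies the pattern onto the new strand when DNA is replicated, and Dnmt3a places new methyl groups and in maturing neurons also methylates cytosines outside CpG. The Tet enzymes oxidize methylcytosine, the first step of its removal, and MBD proteins such as Mbd1 and Mbd2 bind methylated CpG and recruit repressor complexes. Mbd5 carries a related domain and is known for neurodevelopmental disorders in people who lack a copy, although its domain is not known to read methylated DNA. RNA levels of these genes were measured here, not methylation.

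The libraries held 159049013 and 188952936 unique molecular identifiers (UMIs, which mark RNA molecules) in cohort 1 and 19134955 to 69344415 in cohort 2. After filtering, 42595 nuclei remained, 4997 to 9936 per library, with a median of 5586 and 6250 UMIs in the libraries of cohort 1 and of 1637 to 4033 in cohort 2. Nuclei were grouped by marker genes into pyramidal neurons (33805 nuclei), inhibitory neurons with a named subtype (4031), astrocytes (1104), oligodendrocyte precursors (307), oligodendrocytes (302) and microglia (152), with the member genes kept out of the clustering. Inhibitory nuclei without a named subtype, 19 and 12 in the libraries of cohort 1 and 45 to 127 in cohort 2, are outside the inhibitory class. They and the unnamed nuclei, 174 to 678 per library, enter only the sum of all nuclei. The summed level of the 7 pyramidal markers was 2249 to 2520 CPM (UMIs of a gene per 1000000 UMIs of the nuclei summed) in pyramidal nuclei, 458 to 859 CPM in inhibitory nuclei and 423 to 718 CPM in astrocytes, and none of the astrocyte markers was at 0 in any astrocyte sum. Some lists were not particular to the class they name. In interneurons named for vasoactive intestinal peptide (VIP), the list for somatostatin (SST) interneurons summed to 4025 to 5452 CPM and the VIP list to 646 to 1205 CPM. The inhibitory list was at 1333 to 2080 CPM in SST nuclei, 1303 to 2553 CPM in oligodendrocyte precursors and 1634 to 3311 CPM in oligodendrocytes, and the list for deep layers was at 872 to 1484 CPM in the deep-layer nuclei with Rxfp1 and at 1345 to 1845 CPM in layer 5 extratelencephalic (L5 ET) nuclei. The layers were also drawn differently in the cohorts. A cluster of 925 nuclei led by Gm40331 and Cpne9 was named layer 2/3 in cohort 1. In cohort 2 the cluster with Cpne9 among its leading genes was named layer 5 intratelencephalic (L5 IT). A cluster of 1103 nuclei led by Il1rapl2 and Scube1 got no layer name in cohort 1. In cohort 2 a cluster of 3344 nuclei with both among its leading genes was named L5 IT. L5 IT nuclei numbered 916 and 430 in the libraries of cohort 1 and 1434 to 2406 in cohort 2, so the class does not hold the same cells in both. The free RNA of a droplet without a nucleus came to 1070 and 1202 UMIs in cohort 1 and 82 to 302 UMIs in cohort 2, an estimated 3.51% to 16.1% of the UMIs of pyramidal nuclei and 8.01% to 26.7% of those of astrocytes. In the sparser glia it was up to 31.6% in oligodendrocytes, 31.8% in their precursors and 38.8% in microglia. Pairs of libraries shared 5 to 22 cell barcodes. The Sed GH library of cohort 2 was the shallowest, with 90 astrocytes and 12 to 14 nuclei in each of the other glial classes, and its glial values rest on few counts. Cohort 1 values are given below with Run before Sed, and cohort 2 values with the GH pair before the SI pair and Run before Sed in each.

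The genes differ in length, and with introns counted a longer gene can collect more UMIs. On mm10, Dnmt1 lies on chromosome 9 from 20907209 to 20959888 on the minus strand, and Dnmt3a on chromosome 12 from 3806007 to 3914443 on the plus strand. Tet1 lies on chromosome 10 from 62804570 to 62908996, Tet2 on chromosome 3 from 133463679 to 133545139, and Tet3 on chromosome 6 from 83362373 to 83459084, all 3 on the minus strand. Mbd1 and Mbd2 both lie on the plus strand of chromosome 18, from 74267605 to 74282732 and from 70568189 to 70626131, and Mbd5 spans 376 kb of the plus strand of chromosome 2, from 48949508 to 49325405. Exons cover 5.22% of Mbd5, 5.55% of Mbd2 and 44.3% of Mbd1, with 14.003% to 20.7% in the other 5 genes. Per kilobase of gene span, the level in pyramidal nuclei was highest for Dnmt3a, with 2.76 ± 1.00 CPM per kb (SD, n = 6), and lowest for Tet1, with 0.167 ± 0.027 CPM per kb. Among the erasers, the level per kb was 1.21 ± 0.14 CPM for Tet3 and 0.771 ± 0.083 CPM for Tet2, and Dnmt1 reached 0.261 ± 0.071 CPM. Among the MBD genes it was 1.52 ± 0.24 CPM for Mbd1, 1.05 ± 0.07 CPM for Mbd5 and 0.894 ± 0.120 CPM for Mbd2. An antisense gene, Dnmt3aos, lies inside Dnmt3a. It held 54 to 122 UMIs per library against 2494 to 18665 of Dnmt3a, and whether strand was used in counting is not given in the sources used here.

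The first question was in which nuclei each gene was read out. Levels in inhibitory nuclei with a named subtype and in the 4 glial classes were compared with pyramidal nuclei of the same library, and PV with SST interneurons. Differences between libraries that both classes share then cancel, while those that differ by class, such as the share of free RNA, do not. The exact two-sided sign-flip test was run over the 6 log2 ratios. The smallest p this test allows with 6 libraries is 0.03125. Of the 48 tests, 11 reached it, their adjusted p was 0.136, and none could pass 0.05 unless 30 had reached it. The same contrasts were therefore also run with edgeR's quasi-likelihood test over all genes, with the library as a block, an addition made after the first test was seen. It called 20 of the 48, beside 52.7% of all genes called for inhibitory against pyramidal nuclei, 52.7% for astrocytes, 38.9% for oligodendrocytes, 30.4% for precursors, 31.1% for microglia and 26% for PV against SST nuclei, where 0 of the 8 members were called and 5 had an unadjusted p under 0.05 (DESeq2 was not run on classes). TMM scaling lowers these log2 ratios relative to CPM by 0.12 for inhibitory nuclei and 0.22 for astrocytes, and by 0.71, 0.54 and 0.90 for oligodendrocytes, precursors and microglia, so that small glial differences depend on the scale: Dnmt3a in oligodendrocytes was at 0.08 against pyramidal nuclei by CPM and at -0.60 by edgeR.

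**Figure D1:**
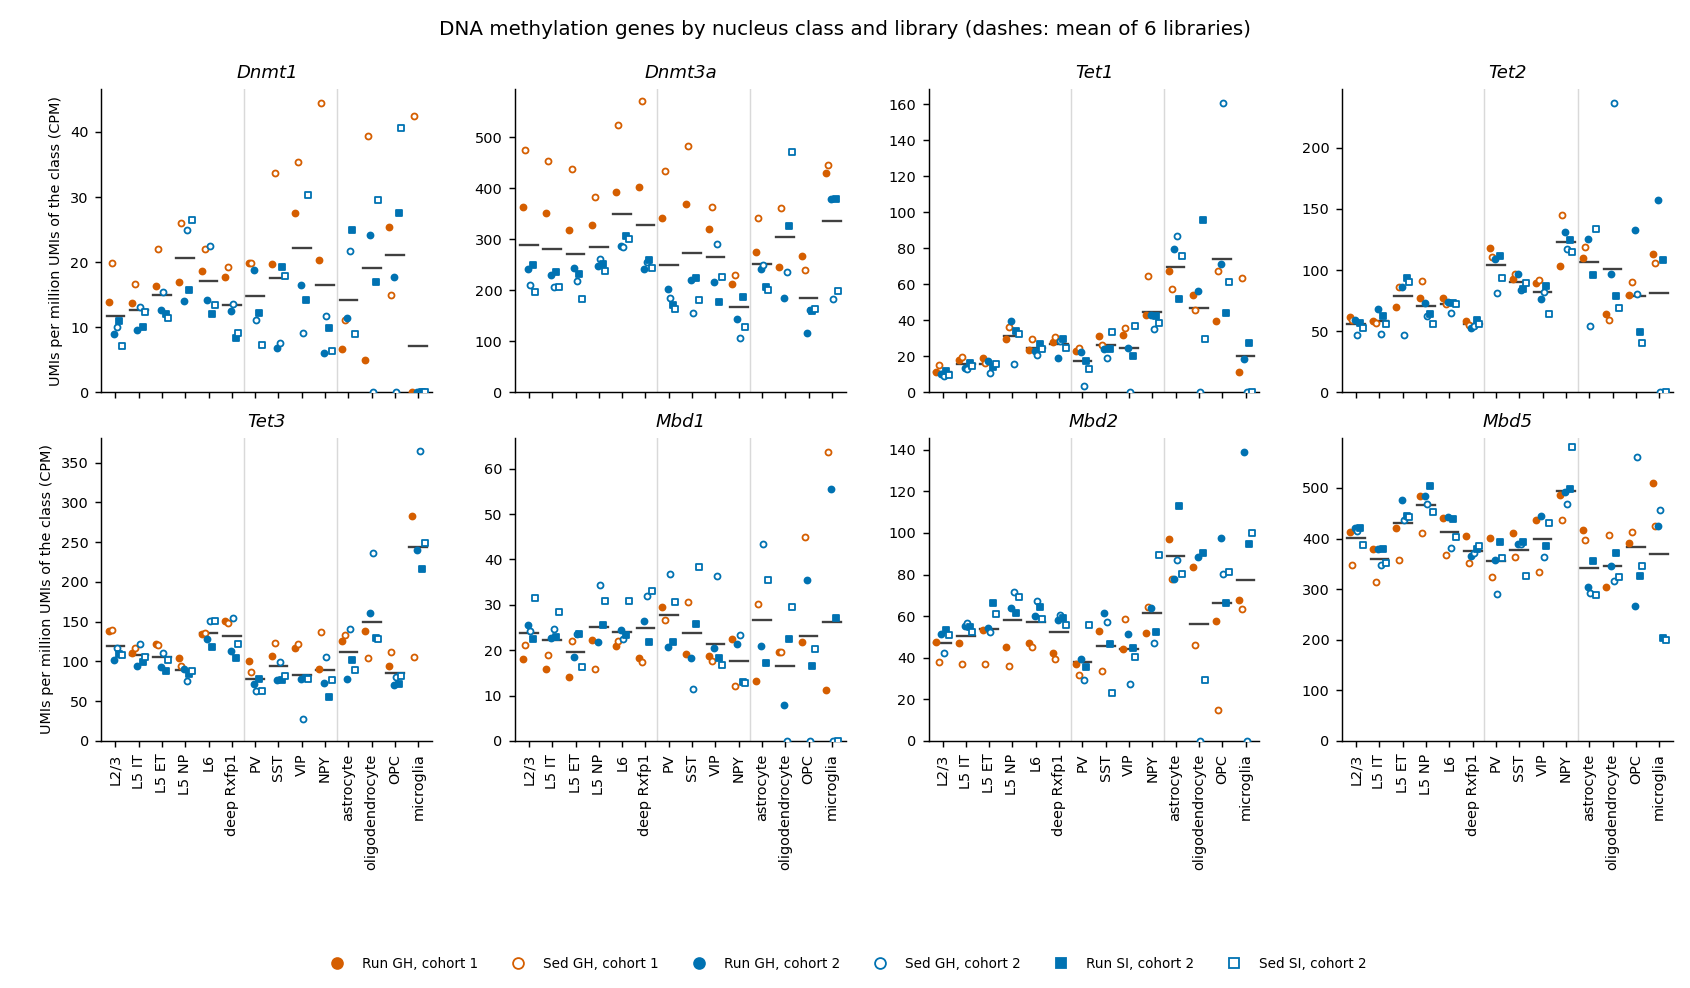
Level of each gene (y axis, CPM, linear and starting at 0) in 14 classes of nuclei (x axis: 6 pyramidal, 4 inhibitory and 4 glial, OPC for oligodendrocyte precursor). Each point is 1 of the 6 libraries, coloured by cohort, filled for Run and open for Sed, with squares for SI, and dashes are means. Tet1 has its highest means in precursors (73.9 CPM) and astrocytes (69.7 CPM), with precursors above astrocytes in 2 of 6 libraries. Dnmt3a stands higher in cohort 1 than in cohort 2 across the neuron classes.

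Of the erasers, Tet1 differed most between classes. Its level in astrocytes was 67.3 and 57.2 CPM in cohort 1 and 79.6, 86.8, 51.7 and 75.6 CPM in cohort 2. In pyramidal nuclei of the same libraries it was 18.01 and 22.1 CPM, and then 16.1, 13.9, 18.6 and 16.2 CPM. The groups of values did not overlap. How many of all genes separate classes in this way was not counted, for Tet1 or for the genes below. The mean log2 ratio was 2.02 ± 0.51 (SD, n = 6) on the CPM scale and 1.69 with an SE of 0.17 by edgeR (adjusted p = 2.4e-09). This rests on 191 Tet1 UMIs in astrocytes, with 8 in the library with the fewest, and was as large after subtraction of the free RNA profile (2.20). Tet1 was also higher in oligodendrocyte precursors, by 2.07 ± 0.96 (41 UMIs, edgeR adjusted p = 0.000321). The largest of these ratios, 3.84, came from the Sed GH library of cohort 2 and rests on 2 UMIs. In oligodendrocytes Tet1 was higher by 1.62 ± 0.49 (45 UMIs, edgeR adjusted p = 0.00108). There the Sed GH library of cohort 2 held no Tet1 UMI and its ratio comes from the pseudocount. The astrocyte markers summed to 727 to 1418 CPM in precursors and 426 to 2443 CPM in oligodendrocytes, against 11018 to 12277 CPM in astrocytes. The part of astrocyte RNA in these Tet1 values was not tested.

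Within neurons, Tet1 was lowest in layer 2/3 pyramidal nuclei, with 11.1 and 14.8 CPM in cohort 1 and 9.9, 9.1, 11.7 and 9.6 CPM in cohort 2. The next class, the L5 ET nuclei with 15.5 ± 2.9 CPM, was above it in 6 of 6 libraries. The highest neuronal class was NPY interneurons, with 44.4 ± 10.4 CPM, which stood above layer 5 near-projecting (L5 NP) nuclei with 31.1 ± 8.3 CPM in 6 of 6 libraries. The 4.02-fold span between NPY and layer 2/3 nuclei was the widest of the 8 genes over the 10 neuron classes. PV interneurons, the fast-spiking cells that express parvalbumin, had less Tet1 than SST interneurons in 6 of 6 libraries (log2 ratio -0.72 ± 0.75, edgeR adjusted p = 0.0984), of which 1 PV library held a single UMI.

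Tet2 was higher in interneurons than in pyramidal nuclei. Inhibitory nuclei held 102 and 105 CPM in cohort 1 and 101, 86.4, 99.03 and 88.6 CPM in cohort 2. Pyramidal nuclei held 63.3 and 65.8 CPM, and then 68.3, 50.1, 67.8 and 61.5 CPM. Every inhibitory value was above every pyramidal value. The log2 ratio was 0.64 ± 0.10 (SD, n = 6), and 0.51 with an SE of 0.05 by edgeR (adjusted p = 1.08e-07). Among the neuron classes Tet2 was highest in NPY interneurons, with 123 ± 14 CPM, followed by PV interneurons with 104 ± 14 CPM, and the NPY value was above that of astrocytes, the next class in the order, in 4 of 6 libraries. The lowest classes were layer 2/3 with 56.2 ± 5.2 CPM and the deep-layer nuclei with Rxfp1 with 55.7 ± 2.6 CPM, which did not differ beyond their spread. Astrocytes, with 106 ± 29 CPM, were above pyramidal nuclei in 6 of 6 libraries (log2 ratio 0.74 ± 0.31, edgeR adjusted p = 0.000604).

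Tet3 showed the reverse order in neurons. Inhibitory nuclei held 105 and 111 CPM in cohort 1 and 74.7, 75.4, 75.7 and 72.8 CPM in cohort 2. In pyramidal nuclei Tet3 was 131 and 133 CPM, and then 103.4, 123, 102 and 111 CPM. Within each library the inhibitory value was the lower (log2 ratio -0.46 ± 0.17, n = 6; edgeR -0.54 with an SE of 0.06, adjusted p = 2.68e-07), while the 2 sets overlapped across libraries. Layer 6 nuclei held the most Tet3 of the neurons, with 136 ± 13 CPM, and PV interneurons the least, with 77.3 ± 14.6 CPM. Microglia, the immune cells of the brain, stood highest with 243 ± 85 CPM, above oligodendrocytes in 6 of 6 libraries, but this came from 81 UMIs, and against pyramidal nuclei 5 of 6 libraries were higher (log2 ratio 1.06 ± 0.65, edgeR 0.20 with an SE of 0.30, adjusted p = 0.66).

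Shares within the Tet family do not depend on library scaling. Tet3 made up 61.7% and 60.3% of Tet UMIs in pyramidal nuclei of cohort 1, and 55.05%, 65.8%, 54.03% and 58.9% in cohort 2. In inhibitory nuclei it made up 44.4% and 44.9%, and then 37.0%, 43.3%, 38.3% and 38.8%. No inhibitory share reached the lowest pyramidal share. The difference, inhibitory minus pyramidal, was -18.2 ± 2.7 percentage points (SD, n = 6; exact sign-flip p = 0.03125, adjusted over 12 share tests 0.075). Pyramidal nuclei of layer 2/3 had the largest mean share of Tet3 among neurons, 63.8%, and NPY interneurons the smallest, 34.4%. Within the pyramidal layers, L5 NP nuclei had the smallest, 47.0%. The Tet3 share was also smaller than in pyramidal nuclei in 6 of 6 libraries in astrocytes (38.8% ± 8.5), oligodendrocyte precursors (37.4% ± 9.3) and oligodendrocytes (50.7% ± 4.7), each with the same adjusted p of 0.075. It was smaller in PV than in SST interneurons in 6 of 6 libraries (difference -5.34 ± 3.03 percentage points). Microglia had 71.2% ± 24.5 from 129 Tet UMIs, with libraries from 38.5% to 100%.

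**Figure D2:**
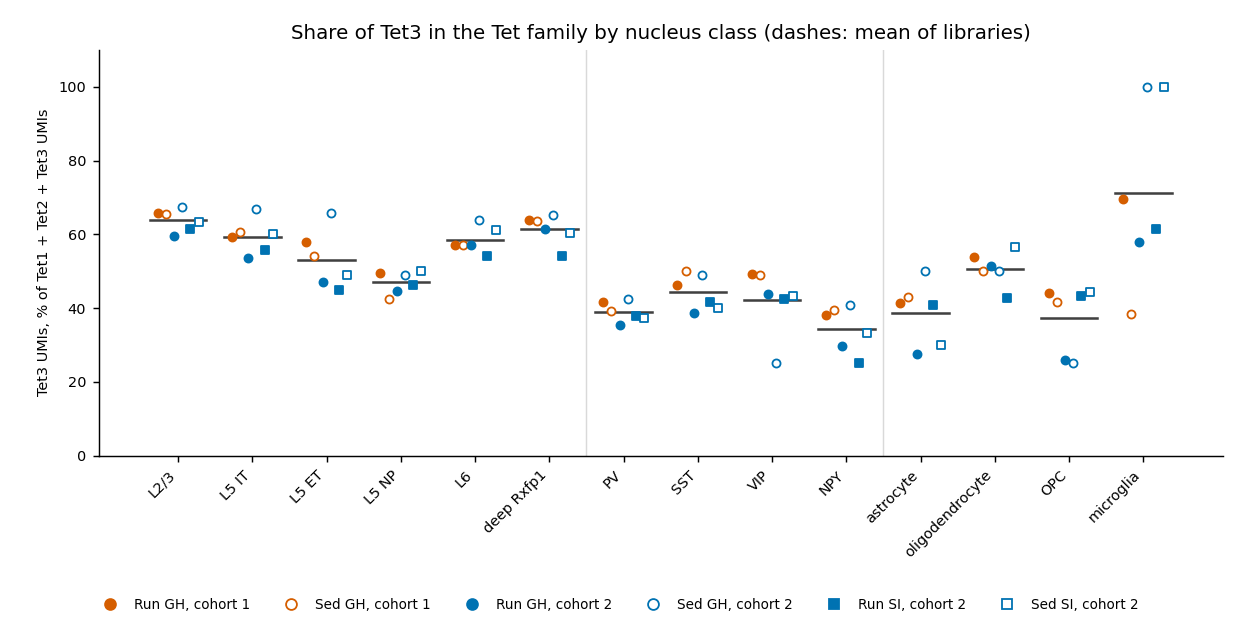
Tet3 UMIs as a percentage of all Tet1, Tet2 and Tet3 UMIs (y axis, 0 to 100%) in 14 classes of nuclei (x axis). Points are libraries, coloured by cohort, filled for Run and open for Sed, with squares for SI, and dashes are means: layer 2/3 nuclei average 63.8% and NPY interneurons 34.4%.

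Of the writers, Dnmt3a was lower in inhibitory than in pyramidal nuclei of every library. Inhibitory nuclei held 333 and 419 CPM in cohort 1 and 204, 181, 193 and 177 CPM in cohort 2. Pyramidal nuclei held 364 and 493 CPM, and then 245, 224, 251 and 218 CPM. The difference between cohorts was larger than that between classes, so the sets overlap across libraries, and within libraries the log2 ratio was -0.27 ± 0.09 (n = 6; edgeR -0.38 with an SE of 0.05, adjusted p = 2.26e-06). Layer 6 nuclei had the highest neuronal level, 349 ± 94 CPM, and NPY interneurons the lowest, 167 ± 50 CPM, a 2.09-fold span. In oligodendrocyte precursors, the dividing cells of the adult cortex, Dnmt3a was lower than in pyramidal nuclei in 6 of 6 libraries (log2 ratio -0.60 ± 0.36, edgeR adjusted p = 1.22e-06), from 158 UMIs, and the ratio was -0.10 over nuclei with at least 1000 genes. No pair of neighbours in the order of the 14 classes was separated in all 6 libraries for Dnmt3a.

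Dnmt1 was the sparsest of the writers. Its means ran from 11.8 ± 4.6 CPM in layer 2/3 nuclei to 22.2 ± 10.4 CPM in VIP interneurons among the neurons, and no neighbours in that order were separated in 6 of 6 libraries. Inhibitory nuclei exceeded pyramidal nuclei in 5 of 6 libraries (log2 ratio 0.29 ± 0.39, edgeR adjusted p = 0.0288). In microglia 2 UMIs were seen in all, both in 1 library, and a level cannot be given at this depth. Dnmt3a made up 95.5% ± 0.8 of the UMIs of both writers in pyramidal nuclei and 93.6% ± 1.0 in inhibitory nuclei, a difference of -1.90 ± 1.46 percentage points, with the lower share in inhibitory nuclei in 5 of 6 libraries (exact sign-flip p = 0.0625, adjusted p = 0.125). The other writer-share contrasts had adjusted p from 0.214 to 0.906.

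Among the MBD genes, Mbd2 was higher in astrocytes than in pyramidal nuclei. Astrocytes held 97.0 and 77.8 CPM in cohort 1 and 77.7, 86.8, 113 and 80.0 CPM in cohort 2. Pyramidal nuclei held 47.3 and 39.9 CPM, and then 55.7, 54.4, 58.8 and 54.8 CPM. All astrocyte values lay above all pyramidal values (log2 ratio 0.80 ± 0.23, n = 6; edgeR 0.62 with an SE of 0.14, adjusted p = 0.000359), while against microglia, the next class in the order, astrocytes were higher in 4 of 6 libraries. PV interneurons had the lowest mean, 38.2 ± 9.4 CPM, and the inhibitory class was below pyramidal nuclei in 5 of 6 libraries (log2 ratio -0.19 ± 0.19, edgeR adjusted p = 0.00141). Mbd5 was the most even gene, with a 1.39-fold span over the 10 neuron classes, from 355 ± 42 CPM in PV interneurons to 493 ± 48 CPM in NPY interneurons, and L5 NP nuclei with 467 ± 33 CPM were above L5 ET nuclei with 430 ± 40 CPM in 6 of 6 libraries. Its inhibitory to pyramidal ratio was -0.02 ± 0.06 on the CPM scale and -0.14 with an SE of 0.05 by edgeR (adjusted p = 0.0175). Among neurons Mbd1 ranged from 17.6 ± 5.4 CPM in NPY to 27.7 ± 6.0 CPM in PV interneurons, no neighbours in its order were separated in all libraries, and no contrast was called for it by either test (edgeR adjusted p from 0.0951 to 0.909).

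The second question was whether the cohorts differed, which sets the scale for all comparisons between libraries. Dnmt3a was lower in cohort 2 in all neuronal sums. In pyramidal nuclei its levels were 364 and 493 CPM in cohort 1 against 245, 224, 251 and 218 CPM in cohort 2, with no overlap. How many of all genes show no overlap between the cohorts was not counted, for Dnmt3a or for the genes below. The log2 difference was -1.02 with an SE of 0.15 (edgeR fit of cohort with maternal environment and housing, 2 residual degrees of freedom, adjusted p = 0.00427). SI mice exist only in cohort 2, so the cohort differences from this fit compare the GH libraries of the cohorts. The call held in all 6 fits that left out 1 library, with a range of -1.26 to -0.78. In the same edgeR test it was also made in layer 2/3 (-1.08 with an SE of 0.16, adjusted p = 0.000691), layer 6 (-0.80 with an SE of 0.13, adjusted p = 0.00148), PV (-1.07 with an SE of 0.17, adjusted p = 1.24e-05) and SST nuclei (-1.20 with an SE of 0.19, adjusted p = 5.79e-05). The layer 2/3 class holds different clusters in the cohorts, as given above, and their part in its difference was not tested. In astrocytes the difference was -0.34 with an SE of 0.22 (edgeR adjusted p = 0.262). The free RNA of the libraries also held more Dnmt3a in cohort 1, 292 and 307 CPM, than in cohort 2, 216, 89.1, 217 and 111 CPM, and after subtraction of that profile the pyramidal difference was -1.12 (edgeR adjusted p = 0.00968).

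**Figure D3:**
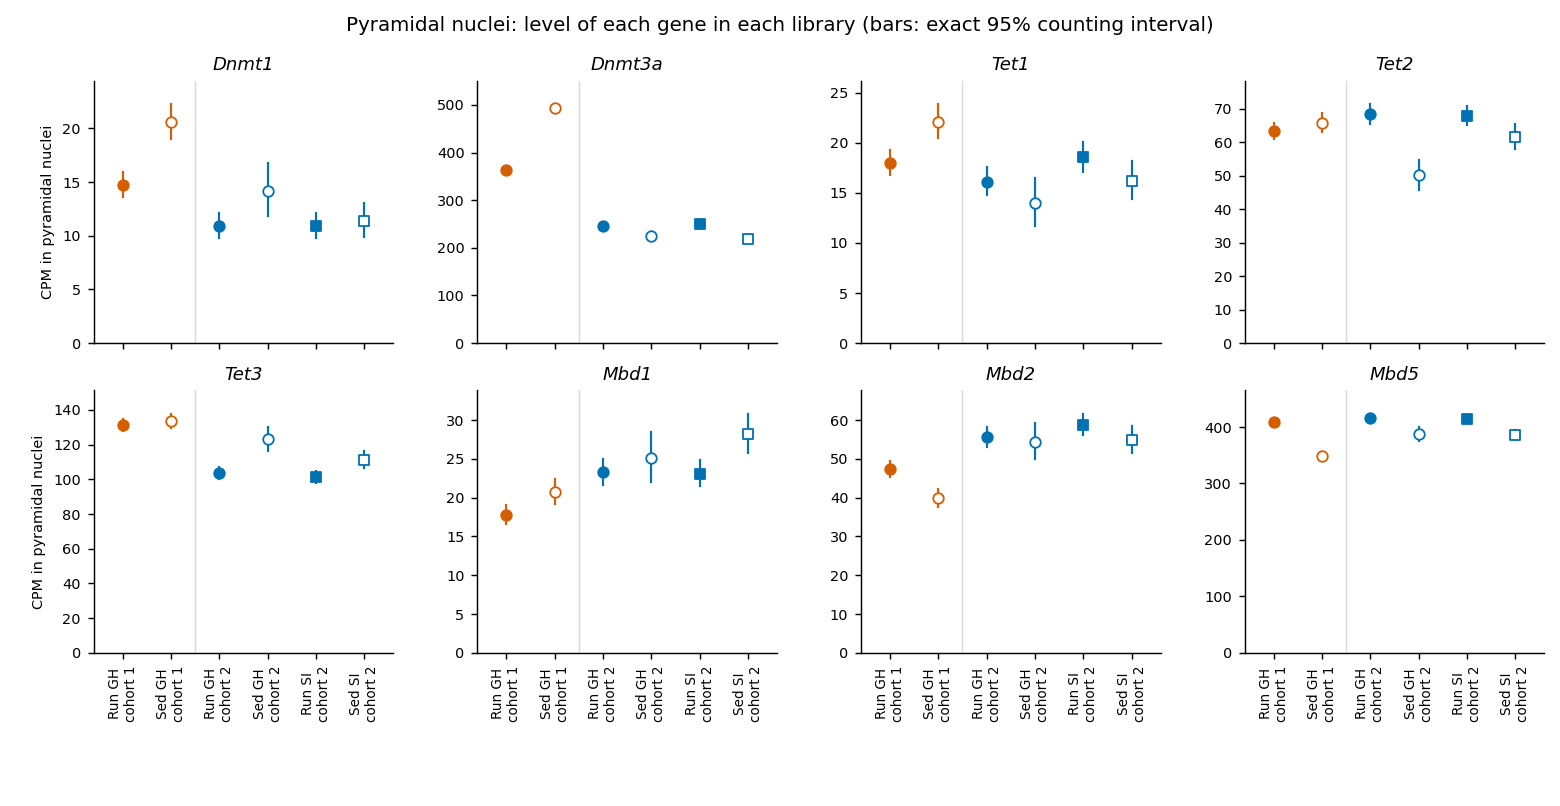
Level of each of the 8 genes in pyramidal nuclei (y axis, CPM, starting at 0) in each library (x axis), with exact 95% Poisson intervals that cover counting error. Dnmt3a is at 364 and 493 CPM in cohort 1 (orange) and at 218 to 251 CPM in cohort 2 (blue). Filled points are Run, open points Sed and squares SI.

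Over the 7 sums that were tested, 16 of the 56 tests on members passed, all of them lower in cohort 2, 6 of them of Dnmt3a, 4 of Dnmt1, 4 of Tet3 and 2 of Tet1. The sums share nuclei, as all nuclei hold every other sum and pyramidal nuclei hold layers 2/3 and 6. The calls are therefore not separate results. In pyramidal nuclei 4 of the 8 passed, while 38.2% of all genes were called in either direction, 17.9% as lower and 20.2% as higher in cohort 2. In all nuclei 4 of the 8 passed, beside 39.3% of all genes. In both sums 3 of the 8 passed over nuclei with at least 1000 genes and after subtraction of free RNA, where the call of Tet3 was lost. Dnmt1 was 14.7 and 20.6 CPM in cohort 1 and 10.9, 14.1, 10.9 and 11.4 CPM in cohort 2 (log2 difference -0.65 with an SE of 0.15, edgeR adjusted p = 0.0204). Tet1, with the levels given above, differed by -0.57 with an SE of 0.15 (edgeR adjusted p = 0.0308), and Tet3 by -0.40 with an SE of 0.12 (edgeR adjusted p = 0.0418, and 0.0704 over nuclei with at least 1000 genes and 0.0645 after subtraction of free RNA). The cohorts did not overlap for Dnmt1 and Tet3, while for Tet1 the Run SI library, at 18.6 CPM, lay above the Run GH library of cohort 1, and each of the calls of these 3 genes was lost when any library of cohort 2 was left out. Without each library of cohort 2 in turn, the edgeR adjusted p was 0.16, 0.0745, 0.0611 and 0.06 for Dnmt1, 0.112, 0.18, 0.0896 and 0.0869 for Tet1, and 0.338, 0.0855, 0.117 and 0.116 for Tet3, in fits with 1 residual degree of freedom. The log2 differences in those 4 fits were -0.56 to -0.74 for Dnmt1, -0.49 to -0.67 for Tet1 and -0.27 to -0.52 for Tet3, with the smallest value of Tet3 without Run GH of cohort 2, and without Run GH of cohort 1 Tet3 was at -0.25 (edgeR adjusted p = 0.0457). The 4 other genes in pyramidal nuclei gave -0.30 (Tet2), 0.17 (Mbd1), 0.17 (Mbd2) and -0.08 (Mbd5) with adjusted p from 0.105 to 0.59. On the CPM scale the median gene differed by 0.21 in the Run GH pair and 0.035 in the Sed GH pair of the cohorts, and Mbd5 then differed by 0.03 and 0.15, the other direction.

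Outside the pyramidal sum, Dnmt1 in SST interneurons was at 19.8 and 33.7 CPM in cohort 1 and at 6.7, 7.6, 19.3 and 17.9 CPM in cohort 2, with 97 UMIs in all. The SI libraries, at 19.3 and 17.9 CPM, lay near Run GH of cohort 1, and their gap to the GH libraries enters the housing term. The fitted cohort difference, which compares the GH libraries, was -1.86 with an SE of 0.50 (edgeR adjusted p = 0.00685). DESeq2 did not call it (adjusted p = 0.155), and neither did edgeR without Run GH of cohort 2 (adjusted p = 0.159). In layer 2/3, Dnmt1 (-1.02 with an SE of 0.28, edgeR adjusted p = 0.0158) and Tet3 (-0.55 with an SE of 0.14, adjusted p = 0.0106) were lower, and both calls were lost without Run GH of cohort 2 (adjusted p = 0.123 and 0.205). In that class 42.5% of all genes were called, 20.4% as lower in cohort 2, beside 3 of the 8 members. In PV interneurons 2 of 8 were called, Dnmt3a and Tet3 (-0.59 with an SE of 0.23, edgeR adjusted p = 0.0496; lost by DESeq2, over nuclei with at least 1000 genes, after subtraction of free RNA and in 5 of 6 fits without 1 library), beside 28.4% of all genes, in SST interneurons 2 of 8 beside 26.3%, in layer 6 nuclei 1 of 8 beside 31%, and in astrocytes 0 of 8 beside 26.2%, with 1 of the 8 at an unadjusted p under 0.05 and 0 called by DESeq2. In astrocytes 1 member was called without the filter on low counts and without either SI library. Tube tests, rank, library run and depth differ between the cohorts together and cannot be told apart.

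**Figure D4:**
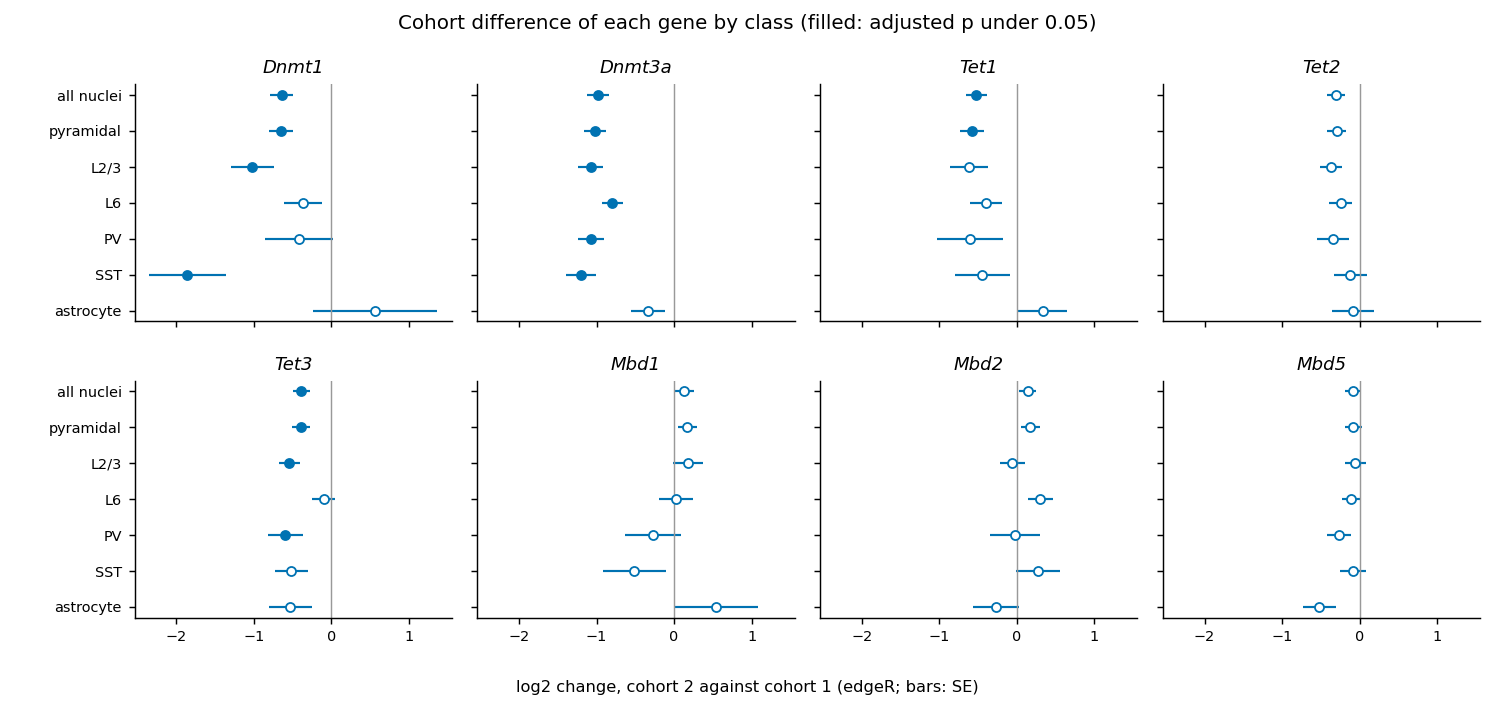
Log2 change in cohort 2 against cohort 1 (x axis, edgeR) of each gene in 7 sums of nuclei (y axis). Points are estimates from the fit to the 6 libraries, in which the cohort difference compares the GH libraries, and bars are SE. Filled points passed an adjusted p of 0.05: Dnmt3a did so in 6 of 7 sums, from -0.80 in layer 6 to -1.20 in SST nuclei. The sums share nuclei and are not separate results.

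The study asked whether early life conditions that raise social dominance go with particular expression profiles in cell types of the cortex. These were a running dam in GH males and isolation in Sed males, while isolated Run males lost dominance. Run against Sed was compared first. No member passed in any of the 56 tests of Run against Sed over the 6 libraries, and none was called by DESeq2. At an unadjusted p under 0.05 stood 2 of 8 members in pyramidal nuclei, where edgeR called 0% of all genes (1331 of 17962 under an unadjusted p of 0.05) and DESeq2 called 47. These were Dnmt1, at 14.7 against 20.6 CPM in cohort 1, 10.9 against 14.1 CPM in the GH pair and 10.9 against 11.4 CPM in the SI pair of cohort 2, and Mbd1, at 17.8 against 20.7, 23.2 against 25.1 and 23.1 against 28.2 CPM. Both were lower in Run in 3 of 3 pairs, with edgeR log2 differences of -0.35 (SE 0.13) and -0.25 (SE 0.10) and adjusted p of 0.67 for both. Other pairs in one direction were Tet3, lower in Run in 3 of 3 pairs (-0.18 with an SE of 0.10), and Mbd5, higher in 3 of 3 (408 against 349, 416 against 387 and 414 against 386 CPM, 0.09 with an SE of 0.09). Mbd2 was also higher in Run in 3 of 3 pairs, at 47.3 against 39.9, 55.7 against 54.4 and 58.8 against 54.8 CPM (0.08 with an SE of 0.10). These directions are on the CPM scale, where the log2 ratio of the median pyramidal gene was -0.063, 0.10 and 0.088 in the 3 pairs. Without Run GH of cohort 1, the edgeR values were -0.021 for Mbd2 and 0.010 for Mbd5. The share of all genes with 1 direction in 3 of 3 pairs was not counted. In the other sums, where edgeR called 0% to 0.129% of all genes (0.00691% in layer 2/3 and 0.0381% in layer 6, all higher in Run), the members at an unadjusted p under 0.05 were Dnmt1 and Mbd1 in all nuclei, Mbd2 in SST nuclei (0.59 with an SE of 0.25) and Mbd1 in astrocytes (-1.13 with an SE of 0.43, from 63 UMIs), and none of them passed the adjustment.

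For Dnmt3a the pairs went apart. On the CPM scale, Run was lower than Sed in cohort 1, by a log2 ratio of -0.44 (95% counting interval -0.47 to -0.41). It was higher in cohort 2, by 0.13 (0.06 to 0.20) in the GH pair and 0.20 (0.15 to 0.26) in the SI pair. In the edgeR fit without Run GH of cohort 1, which draws the maternal effect from cohort 2, Dnmt3a was at 0.077. The layers in the pyramidal sum differed in cohort 1, with 646 layer 6 and 2609 layer 2/3 nuclei in Run and 988 and 1324 in Sed, and the summed layer 6 markers were at 662 and 1298 CPM. Within each of the 6 pyramidal classes the cohort 1 ratio of Dnmt3a was also below 0, from -0.22 in L5 NP (counting interval -0.46 to 0.02) to -0.51 in the deep-layer nuclei with Rxfp1, with -0.42 in layer 6 and -0.39 in layer 2/3. These classes leave out the 663 and 440 pyramidal nuclei of cohort 1 that got no layer name. The median gene of the pyramidal pairs was at -0.063, 0.10 and 0.088, so the 0.13 of Dnmt3a in the GH pair of cohort 2 lay close to it. From the 5th to the 95th percentile, pyramidal genes ran from -0.51 to 0.45 in cohort 1. In cohort 2 they ran from -0.66 to 0.67 in the GH pair and from -0.47 to 0.48 in the SI pair. Dnmt3a lay inside these ranges in all 3 pairs, and its counting intervals do not cover differences between libraries. As the study's account of cohort 1 is read here, its Run and Sed mice also differed in their rank, so maternal environment and rank cannot be told apart in that pair. In a fit with a term for maternal environment by cohort, added after these values were seen and with 1 residual degree of freedom, the difference between cohorts was 0.48 with an SE of 0.13 in pyramidal nuclei (edgeR adjusted p = 0.00287). That term called 12.8% of all genes, 4.82% with a positive and 7.99% with a negative value, and 1 of the 8 members, and DESeq2 did not call Dnmt3a (adjusted p = 0.164). In SST nuclei the same term was 0.69 with an SE of 0.24 (edgeR adjusted p = 0.208) and in layer 2/3 nuclei 0.52 with an SE of 0.18 (edgeR adjusted p = 0.0571), where it called 0 of the 8 members and 5.92% of all genes, 4.4% with a negative value. It was 0.33 in layer 6, 0.36 in PV nuclei and 0.34 in astrocytes (edgeR adjusted p = 0.293, 0.658 and 0.998). In all nuclei it was 0.44 with an SE of 0.12 (edgeR adjusted p = 0.0135), the 1 member called there, and the call was lost over nuclei with at least 1000 genes, where 0 members and 1814 genes were called. It stood beside 10.4% of all genes, 3.54% with a positive and 6.84% with a negative value.

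A fit that leaves out 1 library of cohort 1 draws the maternal effect only from the GH and SI pairs of cohort 2. Tet3 in pyramidal nuclei was then lower in Run, at -0.28 with an SE of 0.08, whether Run GH or Sed GH of cohort 1 was left out. Both fits rest on the same 4 libraries of cohort 2, with 1 residual degree of freedom, so their likeness is not a second result. Without Run GH or Sed GH of cohort 2, Tet3 was at -0.09 and -0.10. The levels were 103.4 against 123 CPM in the GH pair and 102 against 111 CPM in the SI pair, whereas Run GH and Sed GH of cohort 1 held 131 and 133 CPM. In the sum of all nuclei, Tet3 was at -0.27 and Mbd1 at -0.33 when either library of cohort 1 was left out, again from the same libraries of cohort 2. Depth moved with these pairs, the Sed GH library of cohort 2 having a median of 1637 UMIs per nucleus against 3397 in Run GH, and its part in the result was not tested.

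**Figure D5:**
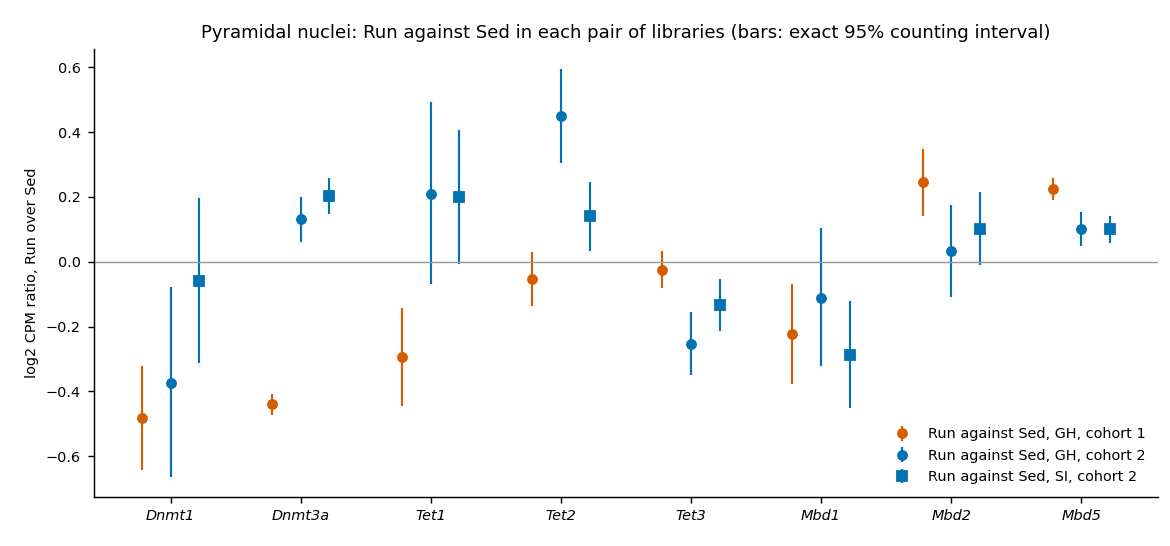
Log2 CPM ratio of Run over Sed in pyramidal nuclei (y axis) for each gene (x axis) in the 3 pairs of libraries that share cohort and housing, with exact 95% counting intervals. Dnmt3a lies at -0.44 in cohort 1 and at 0.13 and 0.20 in cohort 2, and Dnmt1 and Mbd1 lie below 0 in all 3 pairs.

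Housing after weaning was compared in cohort 2, where SI libraries exist. The fitted difference is over Run and Sed mice together, in which the study reported opposite effects of isolation on dominance. No member passed in 56 edgeR tests, none was called by DESeq2, and none passed in the 54 tests of the fit to cohort 2 alone. In pyramidal nuclei 0 of 8 members had an unadjusted p under 0.05, and 0% of all genes were called (167 with an unadjusted p under 0.05, and 0 by DESeq2). Dnmt3a was 251 CPM in Run SI against 245 CPM in Run GH and 218 CPM in Sed SI against 224 CPM in Sed GH. The corresponding log2 ratios were 0.03 (95% counting interval -0.01 to 0.08) and -0.04 (-0.11 to 0.04). Mbd5 had ratios of -0.0049 and -0.0037, and Tet1 of 0.21 (0.03 to 0.38) in the Run pair and 0.21 (-0.09 to 0.52) in the Sed pair. In the Sed pair Tet2 was higher in SI, 61.5 against 50.1 CPM (log2 ratio 0.30, 0.14 to 0.45), and in the Run pair it was 67.8 against 68.3 CPM (-0.01, -0.10 to 0.07). Over both pairs the edgeR estimate for Tet2 was 0.14 with an SE of 0.12. In SST interneurons 1 of 8 members, Dnmt1, had an unadjusted p under 0.05 (edgeR log2 difference 1.397 with an SE of 0.55), beside 212 of 10056 genes, and it did not pass the adjustment, which 0.00994% of all genes passed.

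A list of 24 other genes of the pathway gave the surroundings of the members. In pyramidal nuclei 22 of them were tested. The most abundant by counts were Ogt, the glucosaminyl transferase that pairs with Tet proteins (229 ± 43 CPM, n = 6), Baz2b, a reader with an MBD-like domain (217 ± 17 CPM), and Zbtb38, a zinc-finger reader (96.8 ± 13.5 CPM). For Run against Sed and for housing edgeR called 0 of the 22, and 1 (Tdg, Run against Sed) had an unadjusted p under 0.05. Between the cohorts 4 of the 22 were called, 2 higher in cohort 2 and 2 lower, beside 38.2% of all genes. Mbd3, an MBD protein of the NuRD repressor complex, was at 4.9 and 4.3 CPM in cohort 1 and at 14.8, 10.02, 13.01 and 11.6 CPM in cohort 2 (log2 difference 1.26 with an SE of 0.17, edgeR adjusted p = 0.00377), and Gadd45b, an activity-induced gene tied to demethylation, was at 1.7 and 2.8 CPM against 7.9, 6.1, 5.7 and 6.4 CPM (1.53 with an SE of 0.28, edgeR adjusted p = 0.00846). Zbtb4, a zinc-finger reader, fell from 28.9 and 29.8 CPM to 18.4 to 21.8 CPM, and Cxxc5, which binds unmethylated CpG, from 45.2 and 56.1 CPM to 34.3 to 38.4 CPM. Mbd3 and Mbd2, which form alternative NuRD complexes, thus had values of 1.26 and 0.17 in the same comparison.

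In other sums the calls between cohorts were Smug1 (0.51) and Uhrf1 (-2.20) besides those 4 genes in all nuclei, the same 4 genes in layer 2/3, and Gadd45b (1.85), Zbtb4 (-0.70) and Uhrf2 (0.46) in layer 6. In PV nuclei Setdb1 (-0.70) and Zbtb38 (0.55) were called, and in SST nuclei Zbtb38 (0.60), Mbd3 (2.74), Zbtb4 (-0.83) and Smug1 (1.53), all as log2 differences by edgeR. In astrocytes none of 14 tested was called. The list thus gave 6 of 23 calls in all nuclei, 4 of 20 in layer 2/3, 3 of 21 in layer 6, 2 of 16 in PV, 4 of 16 in SST and 0 of 14 in astrocytes, beside 39.3%, 42.5%, 31%, 28.4%, 26.3% and 26.2% of all genes in those sums.

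The genes with patterns most like each member were found over 74 sums (library by class, each with at least 100000 UMIs) among 3252 genes, as Pearson's r of log2(CPM + 1). The sums share libraries, depth and free RNA, so r is a description. Dnmt3a was most like Smurf1 (r = 0.812), Mef2d (0.781) and Mark2 (0.761), and Tet3 was most like Irf2 (0.697), Smurf1 (0.696) and Tbc1d22a (0.666). Tet1 was most like Wapl (0.744), Uty (0.723) and Arid2 (0.719), and Tet2 most like Fgf13 (0.712), Arhgap12 (0.706) and Bckdhb (0.706). For Mbd2 the list was Cdc73 (0.714), Rsbn1l (0.643) and Rab14 (0.609), for Mbd5 Scai (0.69), Psmd14 (0.638) and A830018L16Rik (0.605), for Dnmt1 Dcun1d4 (0.584), Kif3a (0.581) and Cadm3 (0.568), and for Mbd1 Chfr (0.559), Csnk1g3 (0.543) and Rnf111 (0.528). The median count per sum was 19 UMIs for Dnmt1, 24.5 for Mbd1, 25.5 for Tet1 and 406 for Mbd5. Among the members themselves the pair with the highest r was Dnmt3a and Tet3 (0.504), and Dnmt1 and Mbd2 had the lowest (-0.346).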

How the data were processed

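Nuclei of the prelimbic cortex were profiled by the authors with 10x Chromium 3′ V3 chemistry, and the deposited files hold raw UMI counts for every barcode, made with Cell Ranger 6.0.0 per the labels (the file headers name another version) on mm10 with introns counted. The counting strand is not given in the sources used here. Barcodes with 500 to 4000 genes, at most 1% mitochondrial UMIs and at least a library's minimum of UMIs (621 to 3156) were kept, the minimum being the 99th percentile over as many top barcodes as the study's nuclei of that library, divided by 10. Doublets were scored with Scrublet in scanpy 1.11.5 and left in, and leaving them out is an alternative for the class contrasts and shares. Nuclei were clustered within each cohort without the members and the other list genes and named from fixed marker lists, and inhibitory and glial clusters were each clustered again, with purity limits set after the clusters were seen. The members, the list of other genes and the tests were chosen with earlier results of these data known. All 8 members were named in every comparison; of the other genes those that passed an adjusted p of 0.05, otherwise the 3 with the most counts, and for likeness the 3 genes with the highest r.

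Raw counts were summed per library and class, since nuclei are not replicates. The sums were tested with edgeR 4.0.16 (quasi-likelihood, TMM, filter on low counts, R 4.3.3) in 7 sums of nuclei, with Benjamini-Hochberg adjustment over all genes tested. DESeq2 1.42.0 was an alternative. The fit holds cohort, maternal environment and housing, so cohort is the replicate block. Replicate numbers come from the titles and mark the cohort, and the cohort differences of Run GH and Sed GH correlated over 10616 genes (r = 0.774). Class contrasts used log2 CPM with a pseudocount of 0.5 count. Each library is 1 pool of 3 mice, with 1 library per group and cohort, so no condition was repeated within a cohort. The spread behind the edgeR p-values of group comparisons is the departure of libraries from the fitted terms. It mixes differences between pools with differences of the maternal effect between cohorts or housings. Intervals cover counting error only. Depth ran from 19134955 to 188952936 UMIs per library. The edgeR step was tested on simulated data. The values of 1 gene of the list are not reported here. Gene positions are from GENCODE M21 on mm10.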

Additional observations from a re-analysis of the deposited data

Results flagged for a closer look

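Of 28 groups of values examined for a sample far from the others, 1 stood apart, and chance alone marks about 1 in 20 such groups. It was Dnmt1 in pyramidal nuclei of cohort 2, where the Sed GH library had 14.15 CPM and the other libraries had 10.92 to 11.37 CPM. That library was also the shallowest, and the part of depth in this value was not tested.

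The term for maternal environment by cohort, added after the data were seen and with 1 residual degree of freedom, differed from 0 for 1 of 8 members in pyramidal nuclei and in all nuclei, beside 12.8% and 10.4% of all genes, and for 0 of 8 in layer 2/3 nuclei, beside 5.92%. For Dnmt3a it was 0.4778 (SE 0.127, edgeR adjusted p = 0.00287) in pyramidal nuclei and 0.4421 (SE 0.118, edgeR adjusted p = 0.0135) in all nuclei, and DESeq2 called neither (adjusted p = 0.164 and 0.263). Over nuclei with at least 1000 genes the call in all nuclei was lost. Among the other genes of the list, Mbd6 had the largest values, 1.211 in pyramidal nuclei (edgeR adjusted p = 3.23e-06), 1.181 in all nuclei and 1.189 in layer 2/3 nuclei. For Gadd45g the term was 1.093 in pyramidal and 1.027 in all nuclei. For Ogt it was 0.5464 in pyramidal, 0.4926 in all and 0.5696 in layer 2/3 nuclei, and for Setdb1 0.4751 in pyramidal nuclei. In each of these 11 results, which come from 5 genes in sums that share nuclei, the Run minus Sed difference was the higher in cohort 2.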

How the results depend on the processing

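For Run against Sed, 0 of 56 tests on members (8 genes in 7 sums) were called under DESeq2, without the filter on low counts, over nuclei with at least 1000 genes, after subtraction of free RNA, and with no replicate block. Counts of all genes here are for pyramidal nuclei alone unless another sum is named, so they are no background for member counts over the 7 sums. The number of all genes called in pyramidal nuclei was 0 of 17962, and 47 by DESeq2 and 8 without the filter. With 1 library left out, 18560 to 18606 genes were tested there. Leaving out 1 library gave 0 to 3 such calls and 0 to 3102 genes, the highest values without a library of cohort 1, where the effect comes from cohort 2 alone. For housing, 0 members were called in every fit run, and the genes called in pyramidal nuclei were 0, 41 in cohort 2 alone and 0 to 84 with 1 library left out. For cohort, 16 of 56 tests on members were called and 6 to 19 with 1 library left out (6, 9, 10 and 10 without each library of cohort 2, GH pair first), beside 6858 genes and 2650 to 9352, in fits with fewer samples. The exact test called 0 of 48 class contrasts and edgeR with the library as a block 20. Over nuclei with at least 1000 genes the astrocyte sum could not be fitted, and 48 of the 56 tests remain. Directions were followed for members in pyramidal nuclei, for some cohort results in other sums, and for class contrasts and shares with 1 direction in 6 of 6 libraries. Those of the remaining sums and contrasts were not followed. Among the ones followed, the other alternatives changed no direction of a member except as given next, and the cause was not tested. For Run against Sed in pyramidal nuclei Tet1 turned to 0.0049 without the filter, 0.0070 with at least 1000 genes and 0.026 after subtraction of free RNA. For housing, at least 1000 genes gave -0.0057 (Dnmt3a) and -0.012 (Mbd5), and subtraction of free RNA gave -0.0049 (Mbd5). Without the cohort as replicate block, housing gave -0.59 (Dnmt3a), -0.10 (Tet1), -0.013 (Tet2) and -0.036 (Mbd5), and the block changed no call of a member for Run against Sed or housing. Of all genes, the calls for Run against Sed in PV, layer 2/3, layer 6, SST and astrocyte nuclei went from 13, 1, 5, 6 and 6 to 0 without it, and for housing from 1 to 0 in SST and 2 to 0 in astrocyte nuclei. Tet3 in oligodendrocyte precursors turned to 0.011 with at least 1000 genes. With 1 library left out, the ranges that cross 0 for Run against Sed were -0.18 to 0.077 (Dnmt3a), -0.080 to 0.11 (Tet1) and -0.022 to 0.16 (Mbd2). For housing they were -0.31 to 0.012 (Dnmt1), -0.15 to 0.16 (Dnmt3a), -0.0095 to 0.32 (Tet2), -0.20 to 0.052 (Tet3), -0.056 to 0.17 (Mbd2) and -0.064 to 0.078 (Mbd5), and for cohort -0.21 to 0.048 (Mbd5). The low depth of the Sed GH library of cohort 2 and the few nuclei of the glial classes limit the precision of their values.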
